A study of Mus musculus with 12 samples.

Results

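Rps15a and 7 genes listed near it on mouse chromosome 7 are described here on 12 expression arrays. The 8 genes are Rps15a, Arl6ip1, 2610207I05Rik, Coq7, Tmc7, Gde1, 6330503K22Rik and Jmjd5, and they were taken by symbol, with every probe that carries one of these symbols, detected or not, in both deposited tables. They have 12 of the 25697 probes on each array, and 8 of the 18097 gene symbols. The genes were selected on the difference between AMI and vehicle in these same arrays, so their values under that contrast are a description, and the counts of members past a cutoff are no test of them. The comparison of hippocampus with cortex was not used in the selection and is tested. It uses the same arrays, so the selection could still shift a tissue difference within one treatment.

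The arrays hold RNA of male 3xTgAD mice, a line that carries human transgenes for amyloid and tau pathology. All animals were 18 months old when the tissue was taken, and all groups carry the same transgenes, with no wild-type mice among them. The AMI group drank amitriptyline-hydrochloride, a tricyclic antidepressant, at 100 µg/g body weight for 4 months from the age of 14 months, and the vehicle group drank plain water. Hippocampus and cortex were measured with 3 arrays per treatment and tissue. Which animal gave which array is not stated, so the spread between arrays may be in part technical.

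The genes have no common pathway. Rps15a encodes a protein of the small ribosomal subunit, which reads the mRNA during translation. 2610207I05Rik is named Smg1 in RefSeq and encodes the kinase that phosphorylates Upf1 in nonsense-mediated decay, the pathway that removes mRNAs with a premature stop codon. Arl6ip1 encodes a membrane protein that shapes tubules of the endoplasmic reticulum. Coq7 encodes a mitochondrial hydroxylase of ubiquinone synthesis, and Gde1 a membrane enzyme that cleaves glycerophosphodiesters. Tmc7 belongs to the transmembrane channel-like family. 6330503K22Rik is Ccp110 in RefSeq, and its protein caps centrioles and holds back the growth of cilia. Jmjd5 is Kdm8 in RefSeq, a JmjC domain protein.

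In the RefSeq gene order of GRCm38.p6, Arl6ip1 and Smg1 follow Rps15a directly among protein-coding genes. Coq7 and Tmc7 are neighbours of each other, as are Gde1 and Ccp110, and 9 coding genes lie between Rps15a and Ccp110. Kdm8 lies apart from these, with 76 coding genes between it and Rps15a. The files place the Rps15a probe at chr7:125247949-125247998 on the minus strand, in a build that they do not name. From there the listed probes run over 632 kb to the second probe at the end of 6330503K22Rik. One of the 2 Jmjd5 probes, ILMN_2821736, is listed at only 5.34 kb from the Rps15a probe although its cytoband is given as 7qF3, while the other members with a position are given as 7qF2. The second Jmjd5 probe and the Tmc7 probe have a cytoband and no position.

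The probes are 50 bases long, and the first 30 bases are printed here for the 3 probes that were lower with AMI in both tissues and for the 6330503K22Rik probe next to one of them. Capitals mark runs of 4 or more pyrimidines, the bases cytosine and thymine.
Rps15a, ILMN_2717621: CCTTTTCattcaaCCTCTCCTatgtgCTCT
Tmc7, ILMN_2501267: tgcggCTCTCTaacgggtgtgtgttaaact
6330503K22Rik, ILMN_3006575: aggtccaggttacaaagTTCTCCTCatagg
6330503K22Rik, ILMN_1228426: caggaCTCCgtgtgtatcagtgtgggCTCC
The whole Rps15a probe is 78% pyrimidine, against a median of 50% over all probes, and 99.9% of all probes held less. The Tmc7 probe held 56% and ILMN_3006575 held 46%, so the 3 probes do not have this composition in common. The longest stretch shared by any pair of the 3 was 7 bases, and no other probe on the array has the sequence of any of them. The Rps15a probe starts at base 5025 of its listed transcript, whereas the 32 probes of other small subunit genes start between bases 40 and 1776 of theirs. Whether the Rps15a probe reads the Rps15a mRNA was not tested, and its values are given as those of the probe labelled Rps15a.

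All values below are log2 signals after z normalization. Each array was centred on its mean over all probes, so 0 is the mean signal of an array and a negative value is a signal below it. The tissues were normalized separately, so a value in one is not on the scale of the other, and they are set side by side only in the comparison of tissues, where all 12 arrays were normalized together. Signals of different probes are not compared, since probes differ in brightness. Tissue was measured whole, so fewer cells of a type and less RNA per cell cannot be told apart.

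AMI was compared with vehicle in each tissue to ask which of these genes differed with treatment. Rps15a, Tmc7 and one of the 3 probes of 6330503K22Rik were lower with AMI in hippocampus and in cortex, with no overlap of the groups in either tissue. Rps15a and the 6330503K22Rik probe were lower by 1.96 to 2.73 times, and Tmc7 by 1.31 to 1.52 times. Coq7 was lower in the hippocampus, and Arl6ip1, 2610207I05Rik and one Jmjd5 probe were lower in the cortex, also without overlap. In the raw signals these 4 and Tmc7 overlapped, so that their separation is seen only after normalization. Both Gde1 probes and the neighbouring 6330503K22Rik probe overlapped between the groups.

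The Rps15a probe read 2.69, 1.86 and 2.61 in vehicle hippocampus and 1.30, 1.14 and 0.96 in AMI hippocampus. In the cortex it read 2.92, 2.19 and 2.38 with vehicle and 1.02, 1.05 and 1.08 with AMI. The vehicle arrays scattered over a wide range in both tissues and the AMI arrays lay close together, most of all in the cortex, where their SD was 0.03 against 0.38 with vehicle (n = 3 each). The log2 fold change was -1.25 (SE 0.21) in the hippocampus, the sixth lowest of 13163 tested probes, and -1.45 (SE 0.17) in the cortex, the lowest of 12944. As deposited, before normalization, the hippocampal signals were 661, 579 and 926 with vehicle and 238, 395 and 288 with AMI. The cortical signals were 1113, 635 and 622 with vehicle and 290, 389 and 259 with AMI, so the groups were also apart in the raw signal.

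The 6330503K22Rik probe ILMN_3006575 (chr7:125880065-125880114, plus strand, base 4541 of the transcript) read 2.57, 1.98 and 2.0 in vehicle hippocampus and 0.90, 0.74 and 1.07 in AMI hippocampus. In the cortex the values were 2.08, 1.41 and 1.49 with vehicle and 0.69, 0.84 and 0.54 with AMI. Vehicle replicate 1 was the highest array in each tissue, as it was for Rps15a. The log2 fold change was -1.28 (SE 0.17) in the hippocampus and -0.97 (SE 0.18) in the cortex. The raw signals were apart too, at 601 to 632 against 186 to 312 in the hippocampus and 350 to 617 against 182 to 332 in the cortex.

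A second probe of the same transcript, ILMN_1228426 (chr7:125880160-125880209), begins 95 bases further on, with 45 bases between the probes. It read 2.31, 2.59 and 2.17 in vehicle hippocampus and 2.17, 2.31 and 2.39 in AMI hippocampus. In the cortex it read 2.29, 2.24 and 2.34 with vehicle and 2.28, 2.42 and 2.23 with AMI. The groups overlapped in both tissues, with log2 fold changes of -0.07 (SE 0.13) and 0.02 (SE 0.09), so these adjacent probes gave different readings of treatment. The third probe, ILMN_1224182 at base 156, was not above background on any of the 12 arrays (raw signals of 47.6 to 74.5) and gives no reading. A statement on the whole 6330503K22Rik transcript therefore rests on which of the 2 detected probes is read.

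The Tmc7 probe read 1.67, 1.47 and 1.51 in vehicle hippocampus and 0.73, 1.11 and 0.98 in AMI hippocampus. In the cortex it read 1.33, 1.15 and 1.46 with vehicle and 0.86, 1.07 and 0.82 with AMI. The cortical groups were apart by only 0.07, and the hippocampal groups by 0.36. The log2 fold change was -0.61 (SE 0.12) in the hippocampus and -0.39 (SE 0.12) in the cortex. In the raw signal the Tmc7 groups overlapped in both tissues, at 347 to 439 with vehicle and 167 to 387 with AMI in the hippocampus.

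**Figure D1:**
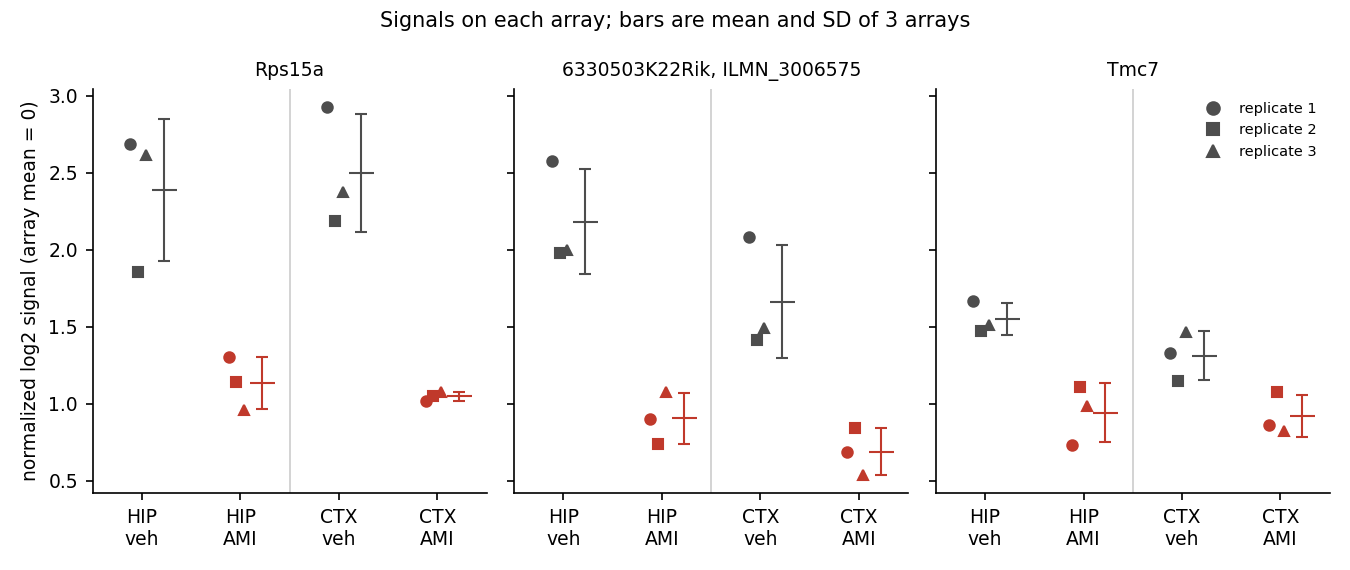
Normalized log2 signal (y axis, array mean at 0) of the Rps15a, 6330503K22Rik ILMN_3006575 and Tmc7 probes in hippocampus (HIP) and cortex (CTX) with vehicle (grey) or AMI (red). Each tissue has its own scale, symbols are single arrays and bars the mean with SD of 3 arrays; in each panel and tissue every AMI array sits below every vehicle array, by 0.07 for Tmc7 in the cortex and by 1.11 for Rps15a in the cortex.

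With all 12 arrays normalized together, the lowest vehicle array of either tissue was above the highest AMI array of either tissue for these 3 probes. The gap was 0.52 for Rps15a, 0.48 for ILMN_3006575 and 0.07 for Tmc7. Of the 12430 probes tested in both tissues, 7 (0.0563%) had all 6 AMI arrays below all 6 vehicle arrays, and 3 of these 7 were members. Another 7 (0.0563%), none of them members, had all 6 AMI arrays above. Within each tissue taken alone, 26 probes (0.209%) had the AMI group below the vehicle group in both. These members were chosen on this pattern, so the counts describe them and support nothing.

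Coq7 read 1.82, 1.60 and 1.80 in vehicle hippocampus and 1.22, 1.35 and 1.43 in AMI hippocampus. The hippocampal groups were 0.17 apart, and the log2 fold change was -0.41 (SE 0.11). In the cortex Coq7 read 0.89, 0.85 and 0.77 with vehicle and 0.79, 0.71 and 0.67 with AMI. The cortical groups overlapped, with a log2 fold change of -0.11 (SE 0.09). Whether the treatment difference itself differs between the tissues was not tested, since the contrast chose the gene.

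Arl6ip1 read 5.67, 5.11 and 5.60 in vehicle hippocampus and 5.43, 4.70 and 4.84 in AMI hippocampus. The hippocampal groups overlapped, because vehicle replicate 2 and AMI replicate 1 lay on the far side of each other, and the log2 fold change was -0.47 (SE 0.21). That hippocampal arrays with the same replicate number form pairs is only a hint from the data, clearest for replicate 1. Within such pairs the difference of AMI minus vehicle for Arl6ip1 was -0.24, -0.41 and -0.75. Of the other overlapping hippocampal probes, 2610207I05Rik was also lower in every pair. The pair differences of Jmjd5 ILMN_2821736, 6330503K22Rik ILMN_1228426 and both Gde1 probes had mixed signs. In the cortex Arl6ip1 read 5.42, 5.14 and 5.36 with vehicle and 4.95, 4.72 and 5.08 with AMI. There the groups were 0.06 apart, with a log2 fold change of -0.39 (SE 0.12). The highest raw Arl6ip1 signal of the cortex was on an AMI array, 6644 against at most 6422 with vehicle.

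2610207I05Rik (Smg1) read 3.28, 3.16 and 3.13 in vehicle hippocampus and 3.28, 2.96 and 3.11 in AMI hippocampus. In the cortex it read 2.93, 3.18 and 3.12 with vehicle and 2.48, 2.74 and 2.75 with AMI. The hippocampal groups overlapped, with a log2 fold change of -0.08 (SE 0.11), and the cortical groups did not, with a log2 fold change of -0.42 (SE 0.11). Its probe starts at base 15125 of a long transcript.

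The Jmjd5 probe ILMN_2821736 read -0.36, -0.25 and -0.42 in vehicle hippocampus and -0.62, -0.48 and -0.35 in AMI hippocampus, with overlap. In the cortex it read 0.06, -0.14 and -0.15 with vehicle and -0.36, -0.22 and -0.28 with AMI, which left the groups 0.07 apart. The log2 fold changes were -0.14 (SE 0.11) and -0.21 (SE 0.10). The other Jmjd5 probe, ILMN_1244329, was detected on 1 hippocampal array and was not tested there, and in the cortex, where 5 of 6 arrays detected it, the log2 fold change was -0.04 (SE 0.11) with overlap.

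The Gde1 probe ILMN_2676481 read between 3.97 and 4.17 on all hippocampal arrays and, on the separate scale of the cortex, between 3.60 and 3.72 on all cortical arrays. Its log2 fold changes were -0.05 (SE 0.10) in the hippocampus and 0.04 (SE 0.08) in the cortex. The second Gde1 probe, ILMN_2634264, read 3.27, 3.05 and 3.39 in vehicle cortex and 3.50, 3.33 and 3.55 in AMI cortex. This was the only member probe whose mean was higher with AMI by over 0.2, at a log2 fold change of 0.22 (SE 0.11), and its groups overlapped. In the hippocampus its log2 fold change was -0.01 (SE 0.10).

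**Figure D2:**
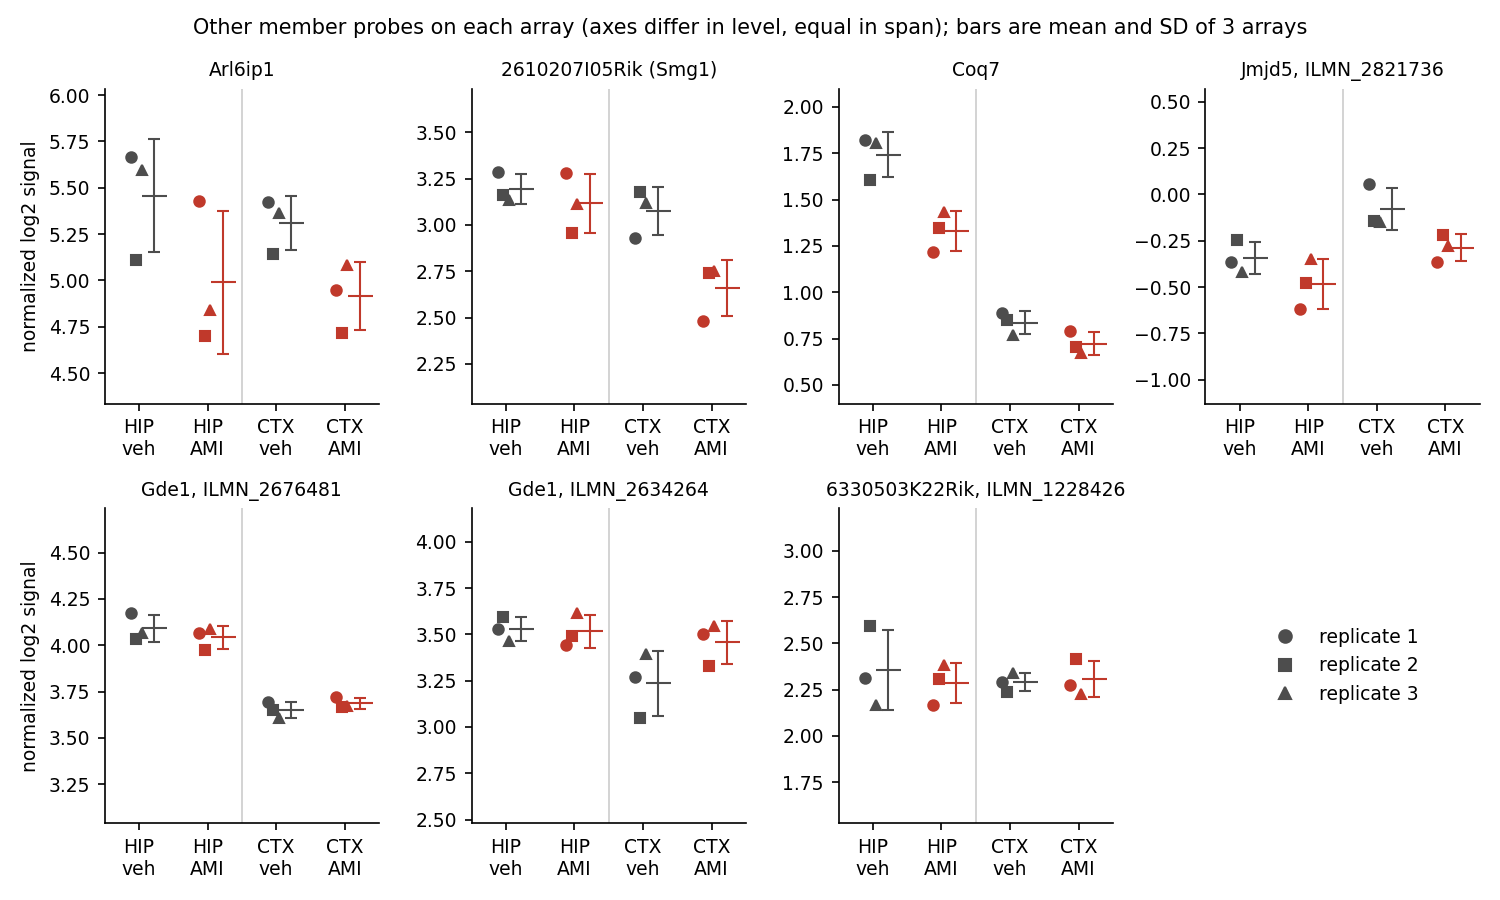
Normalized log2 signal (y axis; the panels differ in level and share one span) of the 7 other member probes tested in both tissues, in hippocampus (HIP) and cortex (CTX) with vehicle (grey) or AMI (red). Each tissue has its own scale, symbols are single arrays and bars the mean with SD of 3 arrays; Coq7 is lower with AMI without overlap in the hippocampus alone, and Arl6ip1, 2610207I05Rik and Jmjd5 in the cortex alone.

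Members were also counted under 2 of the cutoffs of the study's methods (a z ratio of 1.5 or more in size, which is the difference of means over the SD of that difference across all probes, and a p of 0.05 or less, here from limma). The methods also set a false discovery rate under 0.3, which is not applied here because 0 hippocampal and 3 cortical probes of the whole array had a limma adjusted p under it. By the cutoffs applied, 4 of the 10 member probes tested in the hippocampus were called, all lower with AMI. They are those of Rps15a, 6330503K22Rik, Tmc7 and Coq7, and 2.35% of all tested probes were called in the hippocampus. In the cortex 5 of 11 were called, all lower, those of Rps15a, 6330503K22Rik, Tmc7, Arl6ip1 and 2610207I05Rik, beside 6.28% of all tested probes. With the replicate number as a block the hippocampal count of members was 5, with Arl6ip1 added, while the count over all probes went from 309 to 1063. The groups did not overlap with AMI lower for 4 of 10 member probes in the hippocampus (3.52% of all tested) and 6 of 11 in the cortex (4.13%). No tested member probe had AMI above vehicle without overlap (4.38% and 8.10% of all tested). The median log2 fold change of the tested member probes was -0.28 in the hippocampus and -0.21 in the cortex, beside 0.01 and 0.02 over all tested probes. Since the genes were selected on this contrast, nothing is read from these shares.

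Which members passed these cutoffs was also listed under other settings, again as a description. The calls of Rps15a and ILMN_3006575 were made under all 17 other fits in both tissues, and that of Tmc7 under all 17 in the hippocampus and under 16 for cortical arrays, median centring being the exception. Median centring was also the 1 exception for Coq7 in the hippocampus and for 2610207I05Rik in the cortex, and the cortical call of Arl6ip1 was made under 15 of 17, without median centring and neqc. The hippocampal call of Arl6ip1 was made under 9 of 17, among them the fits without vehicle replicate 2 or without AMI replicate 1. The Jmjd5 probe was called in the cortex under 7 of 17 and the Gde1 probe ILMN_2634264, higher, under 6 of 17, in both cases also without vehicle replicate 3. In the fits given here no probe of the array had a limma adjusted p under 0.05 in either tissue, with 309 and 813 probes at an unadjusted p under 0.05. The methods' t-test gave 0 probes after adjustment as well, with 483 and 827 at an unadjusted p under 0.05. Under the alternatives at most 2 cortical probes (neqc, trend and robust variances, or array weights) and at most 1 hippocampal probe (without AMI replicate 2) of the array had an adjusted p under 0.05.

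Few other probes lie among the members. Between the Rps15a probe and the last 6330503K22Rik probe the array holds only 2 probes of other genes, Syt17 and Tmc5. Syt17, a synaptotagmin, was tested in the hippocampus alone and read -0.71, -0.90 and -0.84 with vehicle and -0.81, -0.82 and -0.72 with AMI, a log2 fold change of 0.03 with overlap. On the other side of Rps15a the nearest tested gene was Xylt1, a xylosyltransferase of proteoglycan synthesis, 0.72 Mb away, with log2 fold changes of 0.06 (SE 0.12) in the hippocampus and 0.12 (SE 0.11) in the cortex and overlap in both. The nearest tested gene beyond Rps15a in the cortex that is no member was 2310008H09Rik, at 0.10 (SE 0.10) with overlap.

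Within 5 Mb on either side of the Rps15a probe, 43 probes of other genes were tested in the hippocampus and 42 in the cortex. In the hippocampus 1 of these was called (2.33%, beside 2.35% of all tested probes). It was Crym, a thyroid hormone binding protein, higher with AMI at a log2 fold change of 0.25 (SE 0.11). In the cortex 5 were called (11.9%, beside 6.28% of all tested probes). Dctn5, a dynactin subunit, at -0.47 (SE 0.10), Sez6l2, a neuronal membrane protein, at -0.32 (SE 0.11), and Ern2, an endoplasmic reticulum stress sensor, at -0.31 (SE 0.09), were lower. Mlstd2, a fatty acyl-CoA reductase, at 0.46 (SE 0.09), and Tmem159 at 0.23 (SE 0.09) were higher. A second Sez6l2 probe was at 0.02 in the cortex, so its probes disagree. By the listed positions these 6 calls were over 1.5 Mb from Rps15a. The listed positions do not form one map, since of 22 genes with several tested probes within 10 Mb, Ypel3 and Gm166 each have probes listed 7.35 Mb apart. Distances and windows are therefore those of the files and may be wrong for single probes. The AMI group lay below the vehicle group without overlap for 2 of 43 (4.65%) and 5 of 42 (11.9%) of these probes, and above it for 5 and 3. Over all tested probes the shares were 3.52% and 4.13% below, and 4.38% and 8.10% above. The median log2 fold changes of the neighbouring probes were 0.02 and 0.04, beside 0.01 and 0.02 over all tested probes.

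**Figure D3:**
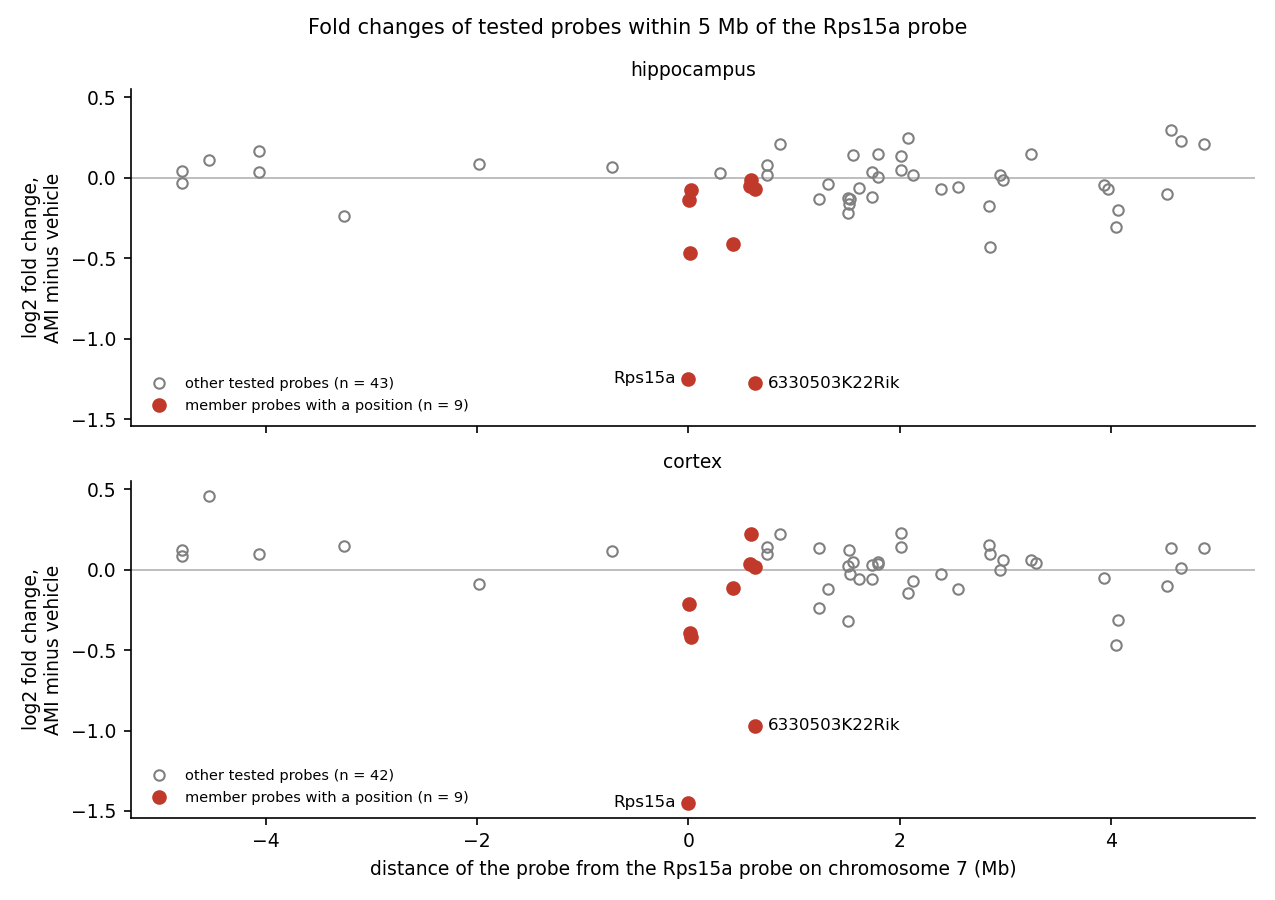
Log2 fold change of AMI over vehicle (y axis) against the listed distance of each tested probe from the Rps15a probe (x axis, Mb) in hippocampus and cortex. Filled points are the 9 member probes that have a position and passed the detection filter, open points the 43 and 42 probes of other genes; only Rps15a and one 6330503K22Rik probe lie below -0.9, and the other members and the neighbours lie between -0.47 and 0.46.

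The likeness of single probes to Rps15a was measured as Pearson's r over the 12 arrays, with each tissue's mean subtracted, among 12429 probes. The arrays share treatment, so r follows the AMI contrast in part. ILMN_3006575 of 6330503K22Rik ranked first (r = 0.93), Tmc7 at rank 10 (0.84), Arl6ip1 at rank 13 (0.82) and Coq7 at rank 26 (0.76). Jmjd5 ILMN_2821736 was at rank 112 (0.64) and 2610207I05Rik at rank 129 (0.63). The Gde1 probes were at rank 2857 (0.17, ILMN_2676481) and rank 10545 (-0.45, ILMN_2634264). The other detected 6330503K22Rik probe had r = -0.11. The 5 most alike genes outside the 8 were Ptpre, a tyrosine phosphatase (0.89), Tomm34, a mitochondrial import factor (0.88), Ercc2, a DNA repair helicase (0.87), Ppp2r5d, a phosphatase subunit (0.87), and Sfi1, a centrosomal protein (0.87). Their log2 fold changes lay between -0.40 and -0.11 in the 2 tissues, smaller in size than those of Rps15a and ILMN_3006575. The cortical values of Tmc7 and Arl6ip1, at -0.39 each, lay in the same range.

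To take the treatment out, the mean of each group was subtracted instead, a measure chosen after the values were seen. Within groups r with Rps15a was 0.70 for Arl6ip1 (rank 28 of 12429), 0.63 for ILMN_3006575 (rank 92), 0.49 for the Gde1 probe ILMN_2676481 (rank 327) and 0.43 for Coq7 (rank 548). The Gde1 probe overlapped between AMI and vehicle in both tissues. Within groups r was 0.17 for Tmc7, -0.10 for 2610207I05Rik and -0.63 for ILMN_1228426, the adjacent 6330503K22Rik probe. For Jmjd5 ILMN_2821736 it was -0.12, and for the Gde1 probe ILMN_2634264 -0.08. The order of arrays was not the same in every group. In both vehicle groups ILMN_3006575 was highest on the array where Rps15a was highest, whereas on AMI replicate 3 it was highest with Rps15a lowest in the hippocampus (1.07 and 0.96) and lowest with Rps15a highest in the cortex (0.54 and 1.08). These are 3 arrays in each of 4 groups, and the values describe those arrays.

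Genes that act with each member were followed from lists, without the member itself. Of 28 tested probes for 25 other genes of the small ribosomal subunit, 0 were called in either tissue. Their log2 fold changes ranged from -0.33 to 0.07 in the hippocampus (median -0.13) and from -0.31 to 0.21 in the cortex (median -0.05). The probe labelled Rps15a, at -1.25 and -1.45, lay outside these ranges, and it is also the one that starts furthest along its transcript. Of the other genes of nonsense-mediated decay (8 probes, 6 genes), 0 were called in either tissue, with medians of 0.05 and -0.02.

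Among the other genes of ubiquinone synthesis 0 of 19 tested probes were called in the hippocampus and 2 of 18 in the cortex. These were Coq6, a hydroxylase, at 0.31 (SE 0.10) and Coq5, a methyltransferase, at -0.19 (SE 0.08), in opposite directions. The list medians were -0.0055 in the hippocampus and 0.0023 in the cortex. The other TMC genes had 4 tested probes for 2 genes, 0 of them called, with medians of -0.10 and -0.0029. In the glycerophosphodiesterase family 1 of 5 probes was called, Gdpd3 in the cortex, at 1.11 (SE 0.27). In the hippocampus 0 were called although Gdpd3 was at 1.09, much as in the cortex, with list medians of 0.04 in the hippocampus and 0.07 in the cortex. Among ARL6 and its interacting proteins 1 of 9 was called, Arl6ip5 in the cortex at 0.39 (SE 0.13), which is opposite in sign to Arl6ip1, and 0 in the hippocampus (medians of 0.10 and -0.0070). Among JmjC domain genes 1 of 20 was called, Jmjd1a in the hippocampus at 0.25 (SE 0.11), and 0 of 19 in the cortex, with medians of 0.08 and 0.03.

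Marker lists were read on the same arrays, with the summed level of a list given as the sum of its tested probes on the linear normalized scale. Between the tissues in vehicle mice, 24.5% of all tested probes passed by limma's adjusted p. Of dentate and hippocampal markers, 4 of 5 tested probes were higher in the hippocampus. Of cortical markers, 6 of 10 were higher in the cortex and 1 in the hippocampus. Striatal markers were also higher in the cortex, on 6 of 8 probes. Their median difference of hippocampus minus cortex was -1.32, beside -0.33 for the cortical list. Of other lists, 4 of 9 microglial and 2 of 6 astrocyte probes were higher in the hippocampus. With AMI in the hippocampus, 5 of 13 oligodendrocyte probes were called lower (Mog on 2 probes, Mag, Cnp and Mbp, genes of myelin), beside 2.35% of all tested probes called. Only Cnp and 1 Mog probe were lower without overlap of the groups, and 1 probe of the list was higher with AMI without overlap. The list median was -0.35 beside 0.01 over all probes. The summed level of the list was 280 to 535 with vehicle and 209 to 382 with AMI, and its part in the lower signals of the members was not tested. In the cortex 0 of 13 were called, with sums of 223 to 340 and 197 to 284. There 2 of 8 striatal probes, Rgs9 and Drd2, were called lower, beside 6.28% of all tested probes called. The summed striatal level was 35.8 to 38.4 with vehicle and 24.9 to 33.8 with AMI, without overlap. Its part in the cortical differences was not tested. The choroid plexus sum spanned 20.0 to 323 with vehicle and 14.0 to 27.9 with AMI in the hippocampus, and 15.7 to 101 and 8.69 to 147 in the cortex, with 0 calls. In the hippocampus all tested choroid plexus probes were lower with AMI, at log2 fold changes of -1.69 to -0.68 (median -0.79). The 323 is hippocampal vehicle replicate 3, without which 4 member probes were called there and the log2 fold change of Rps15a was -1.13. The part of choroid plexus tissue in the differences of the members was not tested. Of the cortical markers 1 probe was called in the cortex (Mef2c at 0.19), and the astrocyte, microglia and hippocampal lists had 0 calls in both tissues.

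On the scale of all 12 arrays normalized together, Coq7 was the one member that differed between the tissues in both treatments. It was higher in hippocampal than in cortical arrays by a log2 difference of 0.76 (SE 0.09) with vehicle (limma adjusted p = 0.000105) and 0.49 (SE 0.09) with AMI (limma adjusted p = 0.00199). Every hippocampal array was above every cortical array of the same treatment. The order of its 4 group means was vehicle hippocampus, AMI hippocampus, vehicle cortex, AMI cortex, and only the last 2 overlapped. The tissues were deposited in separate tables from different software versions, so tissue and table cannot be told apart.

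The Gde1 probe ILMN_2634264 was lower in the hippocampus than in the cortex with AMI, by a log2 difference of -0.34 (SE 0.11, limma adjusted p = 0.0330), and not with vehicle, at -0.09 (adjusted p = 0.587). Its difference with AMI turned to 0.15 (adjusted p = 0.671) with median centring, which moved the median of all probes from 0.02 to 0.19. The call was also lost with quantile normalization (limma adjusted p = 0.0775), neqc (0.124) and the replicate block (0.0668). The other Gde1 probe differed by -0.08 (limma adjusted p = 0.473), so the call rests on 1 of 2 probes. Thus 1 of 11 tested member probes passed with vehicle, where 24.5% of all probes passed, and 2 of 11 with AMI, where 26.4% passed.

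Rps15a did not pass between the tissues, at -0.39 (SE 0.21, limma adjusted p = 0.205) with vehicle and -0.04 (SE 0.21, adjusted p = 0.922) with AMI. The order of its group means was vehicle cortex, vehicle hippocampus, AMI cortex and AMI hippocampus, with overlap between the tissues of a treatment and a gap between the treatments. For ILMN_3006575 the differences were 0.30 (limma adjusted p = 0.276) and 0.13 (adjusted p = 0.675), and for Tmc7 0.08 (adjusted p = 0.697) and -0.08 (adjusted p = 0.662). For Arl6ip1 the differences were -0.46 and -0.49, with limma adjusted p of 0.0852 and 0.0672, which miss the threshold. Over the 23 alternatives its differences ran from -0.64 to 0.21 and from -0.70 to 0.13. It passed under 3 of the 23 with vehicle and 6 with AMI, array weights and the replicate block among them in both treatments.

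**Figure D4:**
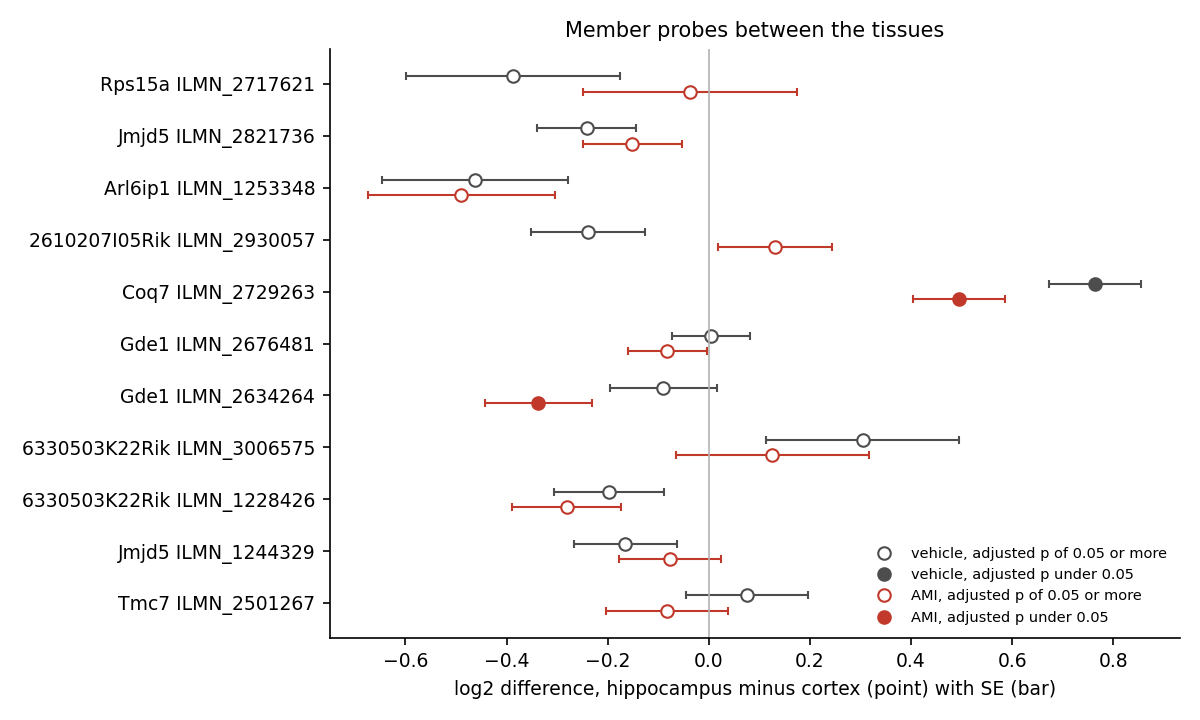
Difference of hippocampus minus cortex (x axis, log2) for the 11 member probes tested over the 12 arrays, with vehicle (grey) and AMI (red). Points are differences of means of 3 arrays and bars their SE from limma, filled where the adjusted p is under 0.05; Coq7 lies at 0.76 and 0.49 and is filled in both treatments.

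The promoters of the 3 genes whose probes were lower in both tissues are shown for reference, as the 250 bases before the RefSeq start in GRCm38.p6, read on the gene's own strand. Capitals mark matches, on either strand, to the TATA box TATAAA, the E-box CACGTG, the cyclic AMP response element TGACGTCA, the Sp1 site GGGCGG, the NRF1 core GCGCATGC and the CCAAT box. No match overlapped another in these windows.
Rps15a, chr7:118116148-118116397, minus strand: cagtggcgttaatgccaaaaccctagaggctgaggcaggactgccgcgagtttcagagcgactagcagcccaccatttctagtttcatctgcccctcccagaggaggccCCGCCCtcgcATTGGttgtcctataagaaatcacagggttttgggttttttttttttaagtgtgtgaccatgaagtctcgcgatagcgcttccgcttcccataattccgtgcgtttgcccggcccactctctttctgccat
Tmc7, chr7:118584687-118584936, minus strand: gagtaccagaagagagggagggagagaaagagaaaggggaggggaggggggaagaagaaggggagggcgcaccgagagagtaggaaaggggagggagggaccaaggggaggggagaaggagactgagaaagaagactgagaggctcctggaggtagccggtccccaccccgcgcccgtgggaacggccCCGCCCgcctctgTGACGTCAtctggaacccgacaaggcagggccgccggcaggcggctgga
Ccp110 (6330503K22Rik), chr7:118712293-118712542, plus strand: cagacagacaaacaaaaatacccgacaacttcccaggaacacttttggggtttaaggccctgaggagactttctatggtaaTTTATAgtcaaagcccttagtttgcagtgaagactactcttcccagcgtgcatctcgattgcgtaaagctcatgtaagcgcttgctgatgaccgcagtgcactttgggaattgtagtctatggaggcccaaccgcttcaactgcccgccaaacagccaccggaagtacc
The Rps15a window holds CCGCCC (the reverse complement of the Sp1 site) and ATTGG (that of the CCAAT box). The Tmc7 window holds CCGCCC and the cyclic AMP response element, and the Ccp110 window only TTTATA, the reverse complement of the TATA box. No motif was in all 3. Over all 32851 windows of the table, 32.7% hold the Sp1 site, 33.8% the CCAAT box, 12.4% the TATA box and 1.55% the cyclic AMP response element. The Sp1 site was in 5 and the CCAAT box in 6 of the 8 members, and the E-box and the NRF1 core (6.02% and 2.26% of all windows) were in none. A match is a description of these letters and no measure of a bound factor.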

How the data were processed

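RNA of 12 samples was hybridised to Illumina Mouse Ref-8 arrays. The authors deposited linear mean bead signals (intensity), neither normalized nor background-subtracted. The authors' tables also give each probe's detection p-value. Both, per the labels, came from BeadStudio 3.4 (hippocampus) and GenomeStudio 1.1.1 (cortex). No aligner or counter applies, and the build of the probe positions is not given in the sources used here. Per array, 12588 to 13280 probes (49.0% to 51.7%) had a detection p of 0.05 or less, and the median signal of these was 2.94 to 5.21 times that of the rest, so that folds of dim probes are understated. Replicates correlated at 0.986 to 0.994.

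Log2 signals were z-normalized per array over all 25697 probes and multiplied by the mean SD. Probes detected on at least 3 of 6 arrays were fitted with limma 3.58.1 in R 4.3.3, two-sided, and tissues were compared in 1 fit of 12 arrays with Benjamini-Hochberg adjustment at 0.05. Groups came from the sample labels. The genes named are all member probes, genes called within 5 Mb, the nearest tested gene on each side, the 5 genes most like Rps15a and called members of the lists. The members and lists were chosen with earlier results of these data known. The fit was tested on simulated data. Gene names were matched to RefSeq by Entrez identifier for 8 of 8 members, and promoters come from RefSeq (GRCm38.p6). Python 3.11.15, numpy 2.4.6, pandas 2.3.3 and matplotlib 3.10.9 were used. Alternatives were other normalizations, filters, variance models, blocks, windows, a stricter z ratio, the methods' t-test and leaving out each array.

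Replicate numbers were checked as pairs by correlating deviations from the group means. In the hippocampus same-numbered AMI and vehicle arrays gave 0.611, 0.296 and 0.293, and differently numbered ones reached 0.280. Pairing is thus a hint from the data and not from the labels, and it is clearest for replicate 1. The fits given are unpaired, and the replicate number as a block was run as an alternative.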

Additional observations from a re-analysis of the deposited data

How the results depend on the processing

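Of the 10 member probes in the hippocampus 4 were called, and between 3 and 5 under the other settings. In the cortex 5 of 11 were called, and 2 with median centring, where Rps15a and one 6330503K22Rik probe remained. With the replicate number as a block, which pairs same-numbered arrays, 5 were called in the hippocampus and 6 in the cortex. In the cortex same-numbered arrays correlated at -0.061, 0.329 and 0.333, and differently numbered ones reached 0.271. Whether the numbers pair cortical arrays is therefore unclear. Between the tissues same-numbered arrays correlated at -0.332 to 0.077. Leaving out 1 array gave 4 to 5 calls in the hippocampus and 5 to 7 in the cortex. Between the tissues with vehicle 1 member probe passed, and 2 with quantile normalization, neqc, z normalization over tested probes or the replicate block, and 4 with array weights. With AMI 2 passed, 1 with median centring and 3 with quantile normalization, and the Gde1 probe was not among those that passed with median centring, quantile normalization, neqc or the replicate block. Leaving out 1 array gave 1 to 2 with vehicle, the second without cortical vehicle replicate 1 or without hippocampal AMI replicate 1, and 1 to 3 with AMI, where the Gde1 probe lost its call without hippocampal AMI replicate 1 or 2 or cortical AMI replicate 1 or 3. Coq7 passed under all 23 alternatives in both treatments. Of neighbouring probes 0% were called in the hippocampus and 5.56% in the cortex within 2 Mb, and 7.19% in the cortex within 10 Mb, beside 2.33% and 11.9% within 5 Mb. No member probe whose groups were apart changed sign over the 10 settings that recompute its fold. Over all probes 309 were called in the hippocampus, from 72 with median centring to 1063 with the block. In the cortex 813 were called, from 375 without vehicle replicate 2 to 1913 without vehicle replicate 3. With all cortical arrays kept the count ran from 433 with median centring to 1782 with array weights. The share of calls that were higher with AMI was 61.5% in the hippocampus (44.6% with neqc, 73.6% with median centring) and 69.4% in the cortex (47.7% with quantile normalization, 90.8% with median centring). Between the tissues, the share higher in the hippocampus was 59.7% with vehicle (87.2% with median centring) and 55.8% with AMI (84.0%). The cause of these shifts was not tested. The files name no slide, so the slide as a block was not run. The 3 arrays of each group limit the precision, and probes near background, such as those of Jmjd5, most of all.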
